A study of Bos taurus with 24 samples.

Results

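The BCL2 family decides at the outer membrane of the mitochondrion whether a cell enters apoptosis. Its pro-survival members hold the pore-forming effectors in check, and the BH3-only members, which share a single short domain with the rest, relieve that hold or switch the effectors on, so that cytochrome c leaves the mitochondrion and activates the caspases. In ovaries, the balance between these groups is known for its part in the loss of germ cells and follicles. The 8 genes described here are the rows of the deposited table with the symbols BCL2, BCL2L1 (the gene of BCL-xL) and MCL1, which are pro-survival, BAX, BAK1 and BOK, which are effectors, and BAD and BID, which are BH3-only. They are 8 of 11306 listed genes, and each symbol was listed at 1 locus.

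The series held 24 RNA libraries from bovine oocytes, 6 for each of 4 groups: germinal vesicle (GV) oocytes of spring (May), GV oocytes of summer (July), metaphase II (MII) oocytes of spring and MII oocytes of summer. The study's methods state that every library was a pool of 4 oocytes from 1 animal, that the donors of all groups were Angus-based crossbred beef cows, adult and neither pregnant nor lactating, and that cumulus cells were stripped with hyaluronidase. MII oocytes had been matured in vitro, so the stages differ in time in culture as well as in meiosis, and the seasons differ in all that separates May from July. Per the methods, the same herd was sampled every month, and part of each cow's oocytes was matured in vitro. Libraries of different groups can thus come from the same cow. The labels do not tie the libraries to individual cows, so this pairing could not be used. The tests take the groups as independent, and p-values measure the spread between these libraries.

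In the 4641 bases of the MCL1 locus and the 50579 bases of the BCL2L1 locus, the same read was not worth the same value. The deposited FPKM of every member equalled a whole number of reads times a constant of the library, divided by the distance from start to stop of the locus, plus 0.01. Over all genes, 98.4% of 215871 values lay within 0.1 of a whole read on this rule, where 20% would by chance. The divisor therefore held the introns of a gene, and levels of different members could be set side by side per kilobase of locus or as reads, but not per length of transcript. In replicate 1 of spring GV, 1 read was worth 0.0208 FPKM for MCL1, 0.00550 for BID, 0.00191 for BCL2L1 and 0.000503 for BCL2. A value is thus given below in FPKM and, where it matters, in reads recovered from it or in RPM, which are reads per 1000000 reads of the listed genes. These counts cover reads after amplification and not molecules.

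**Figure D1:**
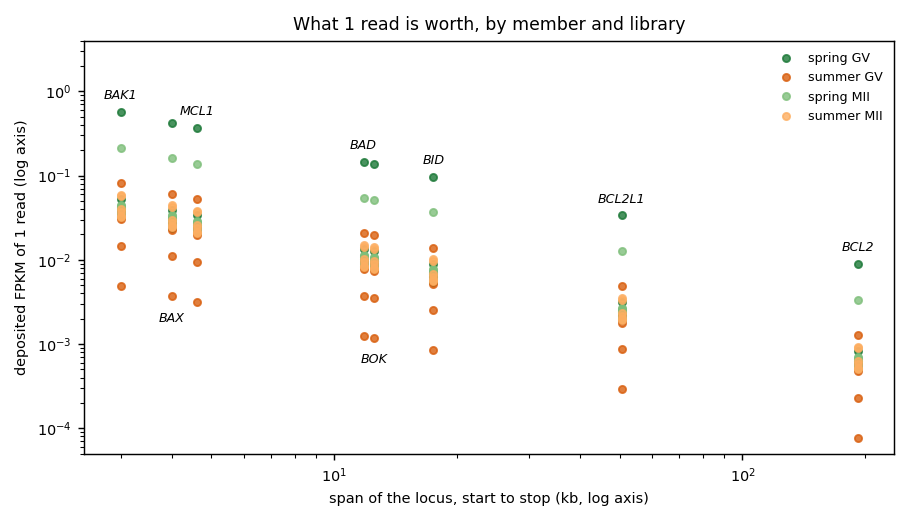
Deposited FPKM worth of 1 read for each member (log axis) against the span of its locus in kilobases (log axis), 1 point per library and coloured by group. Within a library the value fell in proportion to the span, from BAK1 at 3.0 kb to BCL2 at 191.4 kb, and the shallowest library, spring GV replicate 6, lies highest.

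The recovered reads in listed genes ran from 324653 to 28207692 per library, with a median of 3836569. A set of 4 libraries stood apart, and all values without them come from an alternative added after the data had been seen. Replicates 6 of spring GV and of spring MII, and replicate 2 of summer GV, had the lowest shares of mapped reads and few recovered reads, while spring GV replicate 3 held INHA at 37.2 FPKM, AMH at 13.4 and VIM at 75.7, where no other library exceeded 1.73, 0.363 and 2.16. Of the 12 oocyte markers looked for, 10 were listed and 7 were over 1 FPKM in every library, GDF9 among them at 33.1 or more. The summed level of the 17 listed cumulus and granulosa cell markers ranged from 38.3 to 589 FPKM in spring GV, 34.4 to 123 in summer GV, 33.7 to 162 in spring MII and 27.2 to 84.7 in summer MII oocytes. FSHR, a receptor that defines granulosa cells, was at the lowest value in 21 libraries and never over 0.0352 FPKM. The sum of the 4 listed blood markers stayed between 0.932 and 20.6 FPKM. In bulk pools, a lower share of a cell type and less RNA per cell cannot be told apart.

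MCL1 had the highest mean of the family over the 24 libraries, at 7.60 FPKM and 70.5 RPM. It exceeded BAX, the next in FPKM, in 23 of 24 libraries. BAX (1.37 FPKM) and BID (1.10 FPKM) did not keep an order, since BID was the higher in 12 of 12 GV libraries and BAX in 11 of 12 MII libraries. BAD followed at 0.714 FPKM and BCL2L1 at 0.176 FPKM. BAK1 (0.0422 FPKM), BOK (0.0142 FPKM) and BCL2 (0.0103 FPKM) lay near the lowest value of the table, and BOK and BCL2 were equal in 18 of 24 libraries. In RPM the order depended on the stage. In GV oocytes BID (80.3 RPM) and MCL1 (60.8) led without keeping an order, MCL1 being the higher in 5 of 12 libraries, and BAD (30.7), BCL2L1 (24.1) and BAX (10.6) followed. In MII oocytes MCL1 (80.2 RPM) exceeded BID in 12 of 12 libraries, and BAX (13.4), BCL2L1 (10.2), BID (8.64) and BAD (7.07) lay close together. BCL2L1, with its long locus, had more reads than BAX in 11 of 12 GV libraries but the higher FPKM in 2 of 12.

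**Figure D2:**
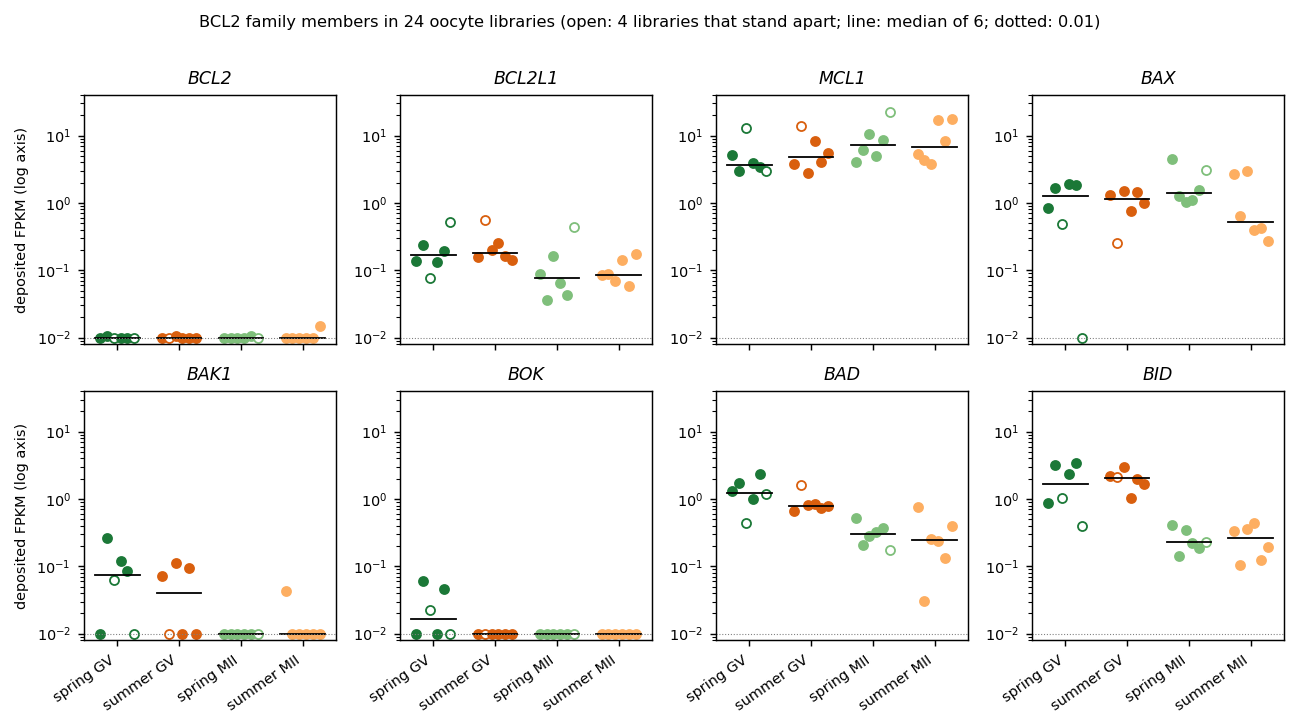
Deposited FPKM (log axis) of the 8 members in each of the 24 libraries, by group; the black line is the median of 6 libraries, open points are the 4 libraries that stand apart and the dotted line is the lowest value, 0.01. The medians of BID and BAD lie lower in both MII groups than in both GV groups, though single libraries of the stages overlap. MCL1 and BAX overlap between all groups, and BCL2, BAK1 and BOK sit at or near 0.01 in most libraries.

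MCL1, on chromosome 3 from 20172325 to 20176966 (plus strand, UMD3.1.1), encodes a short-lived protein that binds BAK1 and BH3-only proteins. Its lowest, median and highest FPKM were 2.95, 3.69 and 13.1 in spring GV oocytes, and 2.76, 4.81 and 14.0 in summer GV oocytes. In MII oocytes they were 4.03, 7.29 and 22.1 in spring and 3.83, 6.88 and 17.4 in summer. All 4 groups overlapped, and each had 1 or more libraries far above its median. MII oocytes averaged 9.38 ± 6.70 FPKM (SD, n = 6) in spring against 5.27 ± 3.93 in GV oocytes, a difference of 0.69 on the scale of log2(FPKM + 1) (standard error, SE, 0.40, limma adjusted p = 0.222, exact permutation p = 0.136). In summer the means were 9.34 ± 6.19 and 6.40 ± 4.16 FPKM (SD, n = 6), a difference of 0.43 (SE 0.42, limma adjusted p = 0.467). Neither difference exceeded the spread between libraries, and their 95% intervals ran from -0.18 to 1.57 and from -0.49 to 1.35.

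The 5 libraries with the most MCL1 were replicate 6 of spring MII, replicates 6 and 4 of summer MII, replicate 2 of summer GV and replicate 3 of spring GV. These were 5 of the 6 libraries with the highest sums of cumulus markers, from 71.6 to 224 FPKM, and 3 of them belong to the libraries named above as standing apart. The library with the highest sum, spring GV replicate 6 at 589 FPKM, of which 392 was KRT18, held only 2.95 FPKM of MCL1, from 8 reads. The part of these markers and of the depth in the levels of MCL1 was not tested. Without the 4 libraries, MCL1 in spring differed by 0.63 between the stages (SE 0.26, limma adjusted p = 0.0719).

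BCL2L1, on chromosome 13 from 61766805 to 61817384 (minus strand), encodes BCL-xL, which restrains BAX and BAK1. It was read in all 24 libraries, with 10 to 517 reads. In spring GV oocytes its lowest, median and highest FPKM were 0.0757, 0.166 and 0.516, and in spring MII oocytes 0.0367, 0.0765 and 0.444. In summer they were 0.141, 0.182 and 0.553 in GV and 0.0578, 0.0865 and 0.175 in MII oocytes. The medians of both MII groups lay under those of the GV groups, and 3 of the 4 libraries that stand apart held the 3 highest values of the gene. On log2(FPKM + 1), MII minus GV was -0.09 in spring (SE 0.10, limma adjusted p = 0.477) and -0.17 in summer (SE 0.07, limma adjusted p = 0.0815, exact permutation p = 0.0152).

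For BCL2L1 the added 1 of that scale hid most of the difference, because its values were far below 1. In RPM, spring GV oocytes had a lowest, median and highest of 7.81, 21.6 and 46.2 and spring MII oocytes of 2.73, 7.26 and 33.05. Summer GV oocytes had 16.1, 21.5 and 44.0 RPM and summer MII oocytes 5.08, 7.66 and 13.9 RPM, so that the summer groups did not overlap. How large a share of all genes separates so between the stages was not counted. On log2 RPM, a scale chosen after the values had been seen, BCL2L1 fell by 1.47 in summer, where MII was 2.78-fold lower than GV (SE 0.36, limma adjusted p = 0.00391), and MII minus GV was -1.33 in spring (SE 0.60, limma adjusted p = 0.0895). Without the 4 libraries that stand apart, the differences on log2(FPKM + 1) were -0.12 in spring (limma adjusted p = 0.0323) and -0.10 in summer (limma adjusted p = 0.0379), so the call for this gene depended on the scale and on those libraries.

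BCL2, the founding member, lies on chromosome 24 from 61914152 to 62105527 (minus strand), in a region that another listed gene, SERPINB2, overlaps on the same strand. It had 10 reads in all 24 libraries together. These came from 4 libraries, namely 1 from spring GV replicate 2, 3 from summer GV replicate 3, 1 from spring MII replicate 5 and 5 from summer MII replicate 6. The highest value was 0.0146 FPKM, and the gene did not pass the filter of a value over 0.1 FPKM in 1 library. A library without a read allows up to 3 reads, or between 0.000232 and 0.0267 FPKM by its depth, and the libraries that stand apart set the upper end of that range. The lower end is that of summer GV replicate 5, the deepest library, which had no read of the gene. In most libraries BCL2 thus had no read and is known only to lie under such a bound, per kilobase of locus. No difference was tested.

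Of the effectors, BAX was the one with reads in nearly all libraries, 23 of 24. Its locus is on chromosome 18 from 55985202 to 55989211 (plus strand). Its lowest, median and highest FPKM were 0.01, 1.25 and 1.93 in spring GV and 0.255, 1.16 and 1.49 in summer GV oocytes. In MII oocytes they were 1.05, 1.40 and 4.45 in spring and 0.276, 0.528 and 3.00 in summer. The 1 library listed at 0.01, spring GV replicate 6, was the shallowest and allowed up to 1.28 FPKM. MII oocytes of either season held a pair of libraries well above the rest, at 4.45 and 3.07 FPKM in spring and at 3.00 and 2.65 in summer.

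The means of BAX were 2.08 ± 1.39 FPKM in MII and 1.13 ± 0.802 in GV oocytes of spring (SD, n = 6), a difference of 0.52 on log2(FPKM + 1) (SE 0.33, limma adjusted p = 0.251). In summer they were 1.23 ± 1.25 and 1.04 ± 0.472 FPKM, a difference of -0.01 (SE 0.32, limma adjusted p = 0.991). Neither passed the test, and the 95% interval of the spring difference ran from -0.18 to 1.23. Without the 4 libraries that stand apart the spring difference was 0.07 (SE 0.30, limma adjusted p = 0.866).

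BAK1, the effector that MCL1 and BCL-xL bind, lies on chromosome 23 from 7655892 to 7658886 (minus strand), where the listed gene H2B overlaps it on the other strand. It had 39 reads in all, 38 of them in GV oocytes. Spring GV replicates 1 to 6 had 0, 6, 1, 3, 2 and 0 reads and summer GV replicates 2, 0, 7, 0, 17 and 0. None of the 6 spring MII libraries had a read, and summer MII replicate 1 had the single read of its group. A count of 0 allowed up to 0.647 FPKM in spring MII replicate 6 and between 0.0976 and 0.178 FPKM in the other 10 MII libraries at 0, beside GV values of up to 0.264 FPKM. The gene passed the filter through GV libraries alone, since its highest MII value was 0.0434 FPKM. No test or fold between the stages is therefore read from it, though it stays among the members tested.

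BOK, an effector-like member that is less dependent on the others, lies on chromosome 3 from 121098866 to 121111325 (plus strand). Its 10 reads came from 3 libraries, spring GV replicates 2, 3 and 5, with 5, 1 and 4 reads. The highest value was 0.0608 FPKM and the gene failed the filter. All 18 libraries of the other groups were without a read. An exact permutation test of spring GV against summer GV gave a two-sided p of 0.182. With reads in only 3 GV libraries, no assignment could give a smaller p, so the test could not decide.

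BID, the BH3-only protein that caspase 8 cleaves and that then moves to the mitochondrion, had the largest differences of the family. Its locus is on chromosome 5 from 109639246 to 109656756 (minus strand). Its lowest, median and highest FPKM were 0.400, 1.69 and 3.43 in spring GV and 1.02, 2.04 and 3.00 in summer GV oocytes. In MII oocytes they were 0.141, 0.226 and 0.408 in spring and 0.105, 0.261 and 0.436 in summer. The summer groups did not overlap, and in spring the groups overlapped only through GV replicate 6, which had 4 reads of the gene, and MII replicate 1. Here too, the share of all genes that separate so was not counted.

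In spring, BID averaged 0.256 ± 0.101 FPKM in MII and 1.88 ± 1.30 in GV oocytes (SD, n = 6), 7.35-fold less in MII. On log2(FPKM + 1) it fell by 1.07 (SE 0.27, limma adjusted p = 0.0133, exact permutation p = 0.00433). In summer it averaged 0.257 ± 0.136 in MII and 1.99 ± 0.650 FPKM in GV oocytes, 7.74-fold less, and fell by 1.23 (SE 0.16, limma adjusted p = 0.000164, exact permutation p = 0.00216, 924 assignments can give no smaller p). In RPM, BID fell by 2.91 in spring (SE 0.55, limma adjusted p = 0.000737) and fell by 3.33 in summer (SE 0.43, limma adjusted p = 3.06e-05) on the log2 scale. The spring difference lay close to 2-fold and fell short of it after quantile normalization (-0.97) and without spring GV replicate 2 (-0.93) or 5 (-0.92), with adjusted p still under 0.05 by limma. Without the 4 libraries that stand apart, it was -1.39 on log2(FPKM + 1) (limma adjusted p = 0.00205). The sums of cumulus markers of the 2 stages overlapped, as given above. The part of these markers in the levels of BID was not tested.

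BAD, the BH3-only protein that 14-3-3 proteins keep in the cytosol when it is phosphorylated, lies on chromosome 29 from 43190201 to 43201980 (minus strand). Its lowest, median and highest FPKM were 0.440, 1.23 and 2.37 in spring GV and 0.673, 0.798 and 1.59 in summer GV oocytes. In MII oocytes they were 0.174, 0.301 and 0.514 in spring and 0.0303, 0.249 and 0.748 in summer. Spring groups overlapped through GV replicate 3, the library with granulosa cell genes, and summer groups through MII replicate 1. The lowest value of the gene, in summer MII replicate 2, rested on 2 reads.

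BAD averaged 0.310 ± 0.123 FPKM in MII and 1.33 ± 0.658 in GV oocytes of spring (SD, n = 6), and fell by 0.79 on log2(FPKM + 1) (SE 0.19, limma adjusted p = 0.00960, exact permutation p = 0.00433). In summer the means were 0.302 ± 0.252 and 0.910 ± 0.340 FPKM, and BAD fell by 0.56 (SE 0.15, limma adjusted p = 0.0137, exact permutation p = 0.00649). Both differences were under 2-fold on that scale, while the means differed 4.29-fold in spring and 3.02-fold in summer. On log2 RPM, BAD fell by 2.30 in spring (SE 0.48, limma adjusted p = 0.00147) and by 2.35 in summer (SE 0.63, limma adjusted p = 0.00747).

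The comparison of MII with GV oocytes asks which transcripts differed between the stages in their level after capture and amplification. Whether the kit captured mRNA alike at both stages was not tested. Calls used the study's thresholds, an unadjusted p under 0.05 and a difference over 2-fold. They were set here on limma and log2(FPKM + 1), in place of the study's Partek GSA test. That scale shrinks the folds of genes with low FPKM, BAD among them. A gene under 1 FPKM in GV oocytes could not be called lower on it, however far it fell. This held for BCL2L1 (at most 0.553 FPKM), BAK1 (at most 0.264) and, in summer, BAD (GV mean 0.910). BAX, with GV means of 1.13 and 1.04 FPKM, lay at that limit. The shares of all genes called are bounded in the same way. By this rule 1 of the 6 members tested, BID, was lower in MII oocytes in spring, where 8.25% of the 9526 genes tested were called lower. In summer it was again BID, 1 of 6, against 9.26% of all genes. The spring call was lost after quantile normalization and without spring GV replicate 2 or 5. At an adjusted p under 0.05, 2 of 6 members, BID and BAD, were lower in either season, against 14.7% of all genes in spring and 23.1% in summer. No member was higher by either rule. BAK1 is 1 of the 6 and, by adjusted p, could only be lower, having passed the filter through GV libraries. The median difference of the 6 members was -0.10 in spring and -0.11 in summer, beside -0.03 and -0.02 for all genes. With 6 genes, these shares are no result about the family as a whole.

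On log2 RPM, 5 members had enough reads, and those lower at an adjusted p under 0.05 were 2 in spring, BID and BAD, and 3 in summer, with BCL2L1 added, against 27.8% and 32.7% of 8693 genes. The median of all genes lay at -0.29 in spring and -0.45 in summer on that scale. Relative to it, BID stood at -2.62 and -2.88, BAD at -2.01 and -1.90 and BCL2L1 at -1.04 and -1.02, while MCL1 stood at 0.81 and 0.74. BAX stood at 0.99 in spring and 0.03 in summer.

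**Figure D3:**
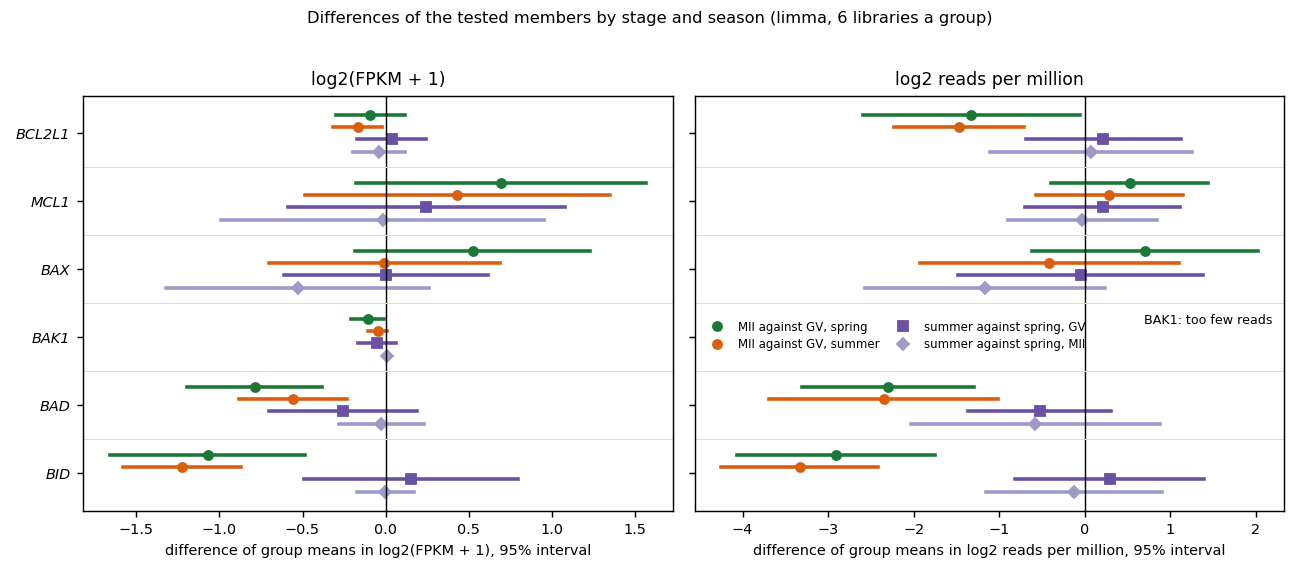
Differences of group means with 95% intervals from limma for the 6 members tested on log2(FPKM + 1) at left and the 5 of them with enough reads on log2 RPM at right; circles compare MII with GV oocytes in each season, and squares and diamonds compare summer with spring at each stage. The stage intervals of BID and BAD lie below 0 on both scales, as do those of BCL2L1 in summer on both scales and in spring on log2 RPM, that of BAK1 in spring lies below 0 too but comes from a gene admitted through GV libraries alone, and every season interval includes 0.

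The comparison of summer with spring asks which members differed between the July and the May libraries, whatever separated the 2 months. No member was called in GV oocytes, where 0.0315% of all genes were called, nor in MII oocytes, where 0.042% were. The study reported more genes at each stage with its own test, which was not rerun here. In MII oocytes BID, BAD, BCL2L1 and BAK1 lay so far under 1 FPKM that a 2-fold difference in FPKM could not be called. For these the absence of a call decides little. Without a pseudocount, 116 of 9526 genes were called in GV and 102 in MII oocytes, and again no member was. By limma no member had an unadjusted p under 0.05 in either stage, on FPKM or on RPM. In GV oocytes the summer minus spring differences on log2(FPKM + 1) ran from -0.26 for BAD to 0.25 for MCL1, and in MII oocytes, BAK1 left out, from -0.53 for BAX to -0.0027 for BID. These intervals were wide for some members and narrow for others. The 95% interval of BAX in MII oocytes ran from -1.32 to 0.26 and that of MCL1 from -0.99 to 0.96, while that of BID in MII oocytes ran from -0.17 to 0.17.

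With the 4 libraries that stand apart left out, 460 of 9526 genes had an unadjusted limma p under 0.05 between the seasons in GV oocytes. BAD was the 1 member among them. That choice of libraries was made after seeing the data. BAD thereby loses its lowest spring value, 0.440 FPKM, and its highest summer value, 1.59 FPKM. Its mean was 0.910 ± 0.340 FPKM in summer and 1.33 ± 0.658 in spring (SD, n = 6), a difference of -0.26 (SE 0.21, limma adjusted p = 1). Without those 4, the 5 summer libraries, at 0.673 to 0.849 FPKM, all lay under the 4 spring libraries, at 0.995 to 2.37 FPKM. The difference was then -0.52 (SE 0.16, limma adjusted p = 0.814, exact permutation p = 0.00794, the smallest of 126 assignments), so it did not pass over all genes. The share of all genes whose libraries separate in this way was not counted. The change from GV to MII was also compared between the seasons, where 0.21% of all genes were called and no member was. For BAD the change differed by 0.23 (SE 0.24, limma adjusted p = 1), and by 0.47 (SE 0.20, limma adjusted p = 1) without the 4 libraries. For BID it differed by -0.16, with a 95% interval from -0.82 to 0.50.

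Since reads could be recovered, the reads of the 8 members were also divided among them within each library. MCL1 took a median of 22.1% of them in spring GV and 29.8% in summer GV oocytes, and 70.9% and 75.6% in spring and summer MII oocytes. BID took 35.9% and 42.2% in GV and 7.18% and 6.83% in MII oocytes. BAD went from 20.6% to 6.78% in spring and from 11.8% to 3.89% in summer. MCL1 had the most reads of the family in 12 of 12 MII libraries and in 4 of 12 GV libraries, where BID led in 7. BAX took 33.4% in spring MII replicate 1 and 28.7% in summer MII replicate 3, the highest of its shares, and BCL2L1 42.9% in spring GV replicate 6, where the whole family had 35 reads. The family as a whole had a median of 202 RPM in spring GV, 190 in summer GV, 116 in spring MII and 107 in summer MII oocytes. A share can rise because the other members fell, and these shares are given without a test.

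**Figure D4:**
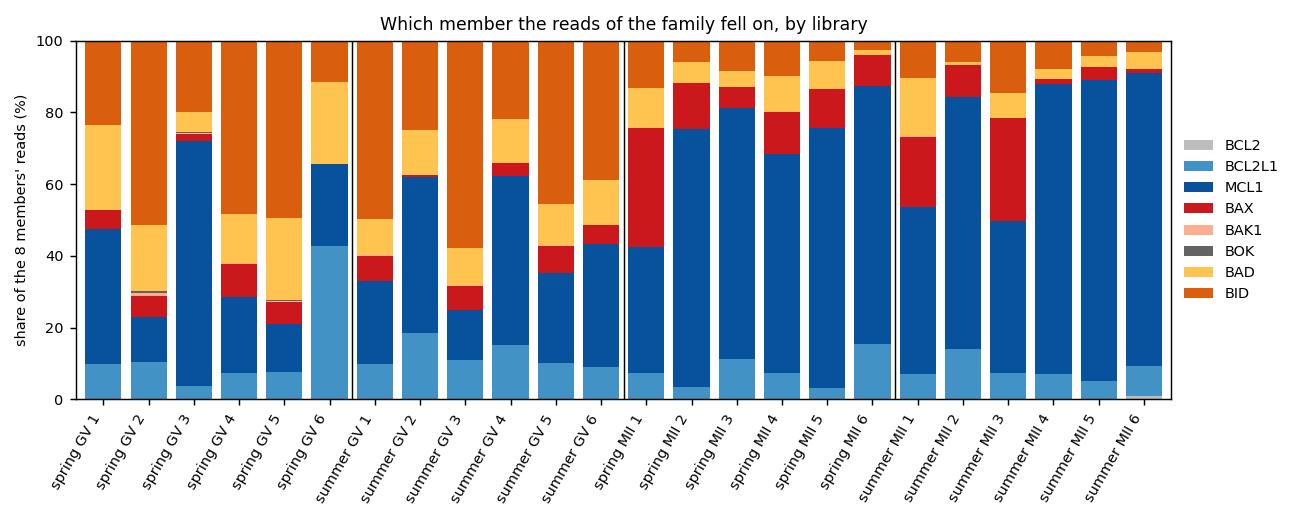
Share of the reads of the 8 members that fell on each member (percent, stacked bars) in each of the 24 libraries, grouped by stage and season. MCL1, in dark blue, takes the most reads in 12 of 12 MII libraries, and BID, in orange at the top, in 7 of 12 GV libraries.

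Other genes of the pathway were read from 5 lists, whose counts stand beside 9.45% of all genes higher and 14.7% lower in spring, and 7.67% higher and 23.1% lower in summer, at an adjusted p under 0.05. On log2 RPM these shares were 10.9% and 27.8% in spring and 8.48% and 32.7% in summer. With 10 to 17 genes tested a list, nothing is read from a list as a whole. Of the 12 listed further genes with BCL2 homology (BH) domains, BNIP proteins included, 10 were tested, and at an adjusted p under 0.05 in spring 1 was higher and 3 were lower in MII oocytes. In summer 0 were higher and 3 lower, and on log2 RPM 1 was higher and 3 lower in spring, and 0 higher and 4 lower in summer. Their median differences were -0.16 and -0.26. BCL2L11, among the lower genes in either season, averaged 0.0404 ± 0.0141 FPKM in spring and 0.0419 ± 0.0186 in summer MII oocytes (SD, n = 6). Like BAK1, it passed the filter of 0.1 FPKM through GV libraries alone and could only be lower, so it is not read as a test. The gene called at the study's thresholds by limma was BNIP1, a vesicle fusion protein of the endoplasmic reticulum with a BH3-like stretch. It averaged 0.410 ± 0.126 FPKM in MII and 1.97 ± 0.880 in GV oocytes of spring. It fell by 1.01 there and by 1.07 in summer (SD, n = 6, limma adjusted p = 0.00729 and 0.00178).

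Of 12 tested genes of the apoptosome and caspases, 2 were higher and 2 lower in spring, and 1 higher and 2 lower in summer, at an adjusted p under 0.05. On log2 RPM, 11 were tested, and 1 was higher and 2 lower in either season. ENDOG, a mitochondrial nuclease, fell by 1.29 in spring and by 0.97 in summer (limma adjusted p = 0.000471 and 0.00391). CASP6, an executioner caspase, rose by 0.80 in spring and by 1.22 in summer, from 9.28 ± 1.62 FPKM in GV to 24.4 ± 11.2 in MII oocytes of summer (SD, n = 6, limma adjusted p = 0.0142 and 0.00360). The medians of this list were 0.01 in either season.

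Among inhibitors of apoptosis and their partners, 17 loci were tested, of which 5 were higher and 0 lower in spring and 2 higher and 1 lower in summer. The balance moved on log2 RPM, where of 16 tested 4 were higher and 1 lower in spring and 2 higher and 4 lower in summer. TMBIM6, a membrane protein of the endoplasmic reticulum that counters BAX-induced death, rose by 1.23 in spring (limma adjusted p = 0.00146), and the summer difference was 0.54 (limma adjusted p = 0.0956). BIRC3 was called at the locus of 1304 bases on chromosome 12 from 68372400 to 68373704, with a difference of 1.31 in spring (limma adjusted p = 0.125), and its other locus, on chromosome 15, had no read in MII oocytes. The medians of the list were 0.02 and 0.02.

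Of 11 membrane and receptor partners, 2 were higher and 2 lower in spring, and 1 higher and 3 lower in summer. On log2 RPM, 2 were higher and 5 lower in spring, and 1 higher and 5 lower in summer. FADD, the adaptor of death receptors, whose pathway reaches BID through caspase 8, fell by 2.72 in spring, from 18.2 ± 13.0 FPKM in GV to 1.69 ± 1.99 in MII oocytes, and by 3.03 in summer, where GV oocytes held 20.5 ± 7.65 (SD, n = 6, limma adjusted p = 0.00569 and 0.000104). VDAC3, a channel of the outer mitochondrial membrane, fell by 1.63 and 2.04 (limma adjusted p = 0.0112 and 0.000113), and its relative VDAC1 rose by 1.27 and 0.94 (limma adjusted p = 0.00490 and 0.0262). The medians of the list were -0.10 and -0.16.

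Of 12 tested genes that modify or bind MCL1 and BAD, 2 were higher and 0 lower in spring, and 1 was higher and 0 lower in summer, with medians of 0.52 and 0.21. On log2 RPM, of 14 tested, 3 were higher and 0 lower in spring and 1 higher and 1 lower in summer. FBXW7, which marks MCL1 for degradation, rose by 1.15 in spring, with 3.54 ± 3.57 FPKM in MII and 0.808 ± 0.673 in GV oocytes (SD, n = 6, limma adjusted p = 0.0321), and its summer difference was 0.27 (limma adjusted p = 0.625). YWHAB, a 14-3-3 protein that binds phosphorylated BAD, rose by 1.32 in spring (limma adjusted p = 0.0122), and its summer difference was 0.54 (limma adjusted p = 0.328). YWHAZ was listed at a locus of 841 bases, with differences of 1.29 and 0.72 (limma adjusted p = 0.0978 and 0.0967), and for such short loci reads shared with near-identical copies cannot be told apart. Whether these changes differed between the seasons was tested for all genes, and no gene of the 5 lists was called, with 1 of them at an unadjusted limma p under 0.05.

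**Figure D5:**
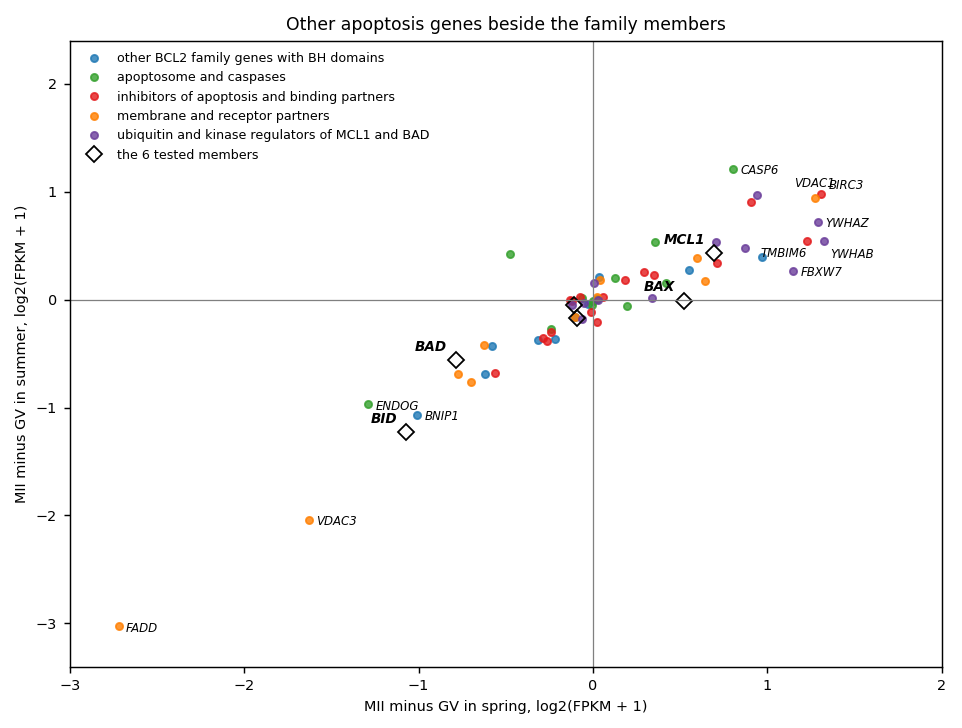
Difference between MII and GV oocytes on log2(FPKM + 1) in spring (x axis) and in summer (y axis), 1 point per tested locus of the 5 lists, coloured by list, with the 6 tested members as open diamonds and the loci called in either season named. FADD at -2.72 and -3.03 and VDAC3 lie lowest, BID lies beside BNIP1 and ENDOG, and MCL1 and BAX lie to the right.

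The genes whose pattern over the 24 libraries was most like that of a member were read off by the correlation of log2(FPKM + 1) among 3665 genes with a mean of at least 1 FPKM. For BID they were CYTH2, an exchange factor for ARF GTPases (Pearson r = 0.979), and NSUN5, an RNA methyltransferase (r = 0.976). CYTH2 averaged 3.78 and 3.42 FPKM in spring and summer GV and 0.363 and 0.312 in MII oocytes. For MCL1 they were MPZL3 (r = 0.938) and TSC22D1 (r = 0.934), and for BAX BRI3BP (r = 0.795) and ANAPC11, a subunit of the anaphase-promoting complex (r = 0.781). These coefficients describe the 24 libraries, which share stage, depth and the libraries that stand apart, and carry no test.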

How the data were processed

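Per the labels and the methods, libraries were made with a Smart-seq2 kit and Nextera XT, which do not mark strand, and sequenced as read pairs. Trimmed reads had been aligned by the authors with STAR 2.5.3a on UMD3.1.1, and FPKM values from Partek Flow were deposited. The methods describe FPKM as corrected for exon length, but the deposited values divide by locus span, sum to between 86768.1 and 86768.2 per library and include an added 0.01.

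Here log2(FPKM + 1) of the 9526 genes over 0.1 FPKM in at least 1 library was tested in R 4.3.3 (limma 3.58.1), fitting the compared groups alone, with Benjamini-Hochberg adjustment over all genes. Calls followed the study's thresholds, an unadjusted p under 0.05 and a difference over 2-fold, the latter on log2(FPKM + 1). The study's Partek GSA test was replaced by limma, because the deposited values are FPKM. "Rose" and "fell" mark an adjusted p under 0.05. Exact permutation tests over 924 assignments are two-sided. Reads were recovered in Python 3.11.15 (numpy 2.4.6, pandas 2.3.3). Log2 RPM (prior 0.5 read, at least 10 reads in 6 libraries) were tested with limma as well. One step was taken as 1 read or read pair. Steps and fits were tested on simulated data. Floors of 3 reads cover counting error only.

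The members and lists were chosen with earlier results of these data known. Beside the members, the text names the loci of each list called in a maturation comparison (all where 6 or fewer) and, for members with a mean of at least 1 FPKM, the 2 genes of highest correlation. Transcript lengths were not used here. Alternatives were other pseudocounts, filters, scalings and fits, the replicate number as a block, and libraries left out. Log2 RPM and the fits without the 4 libraries that stand apart were chosen after seeing the data.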

Additional observations from a re-analysis of the deposited data

Results flagged for a closer look

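In 9 of 28 sets of 6 libraries with any spread, 1 library lay farther from its neighbours on log2(FPKM + 1) than the 95% limit of Dixon's test. In 5 of the 9 the other 5 libraries were tied at the lowest value, so that any read at all would exceed the limit, and the 1 in 20 that chance gives in sets without ties is no measure of them. For BCL2 these were the libraries with a read: spring GV replicate 2 at 0.0107 FPKM (1 read), summer GV replicate 3 at 0.0107 (3 reads), spring MII replicate 5 at 0.0106 (1 read) and summer MII replicate 6 at 0.0146 (5 reads). BAK1 in summer MII replicate 1, the fifth of these, was at 0.0434 FPKM from a single read. In the other 4 sets, BCL2L1 stood high in summer GV replicate 2 at 0.553 FPKM (112 reads) and in spring MII replicate 6 at 0.444 FPKM (34 reads). BAD stood high in summer GV replicate 2 at 1.59 FPKM (76 reads), and MCL1 in spring GV replicate 3 at 13.1 FPKM (384 reads). Of the last 4 values, all came from libraries with a low share of mapped reads or with granulosa cell genes. The part of depth and of other cells in them was not tested.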

How the results depend on the processing

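BID and BAD kept their direction and a limma adjusted p under 0.05 from GV to MII in both seasons under all alternatives run, 23 for BID and 22 for BAD, with adjusted p from 0.000737 to 0.0322 (BID, spring), 3.06e-05 to 0.00278 (BID, summer), 0.00105 to 0.0261 (BAD, spring) and 0.00514 to 0.0495 (BAD, summer). The number of members called, 1 in either season, was 2 in each with a pseudocount of 0.1 or by adjusted p. It was 3 in each on RPM or without a pseudocount, where BAK1, counted in spring, could only be lower. It was 0 in spring after quantile normalization and from 0 to 1 when single libraries were left out, being 0 without spring GV replicate 2 or 5, where BID fell short of 2-fold. Calls over all 9526 genes moved as well, from 1126 in spring and 1092 in summer. They were 2628 and 2521 with a pseudocount of 0.1, 2304 and 2929 by adjusted p, and 3536 and 3592 without a pseudocount. On RPM, 3612 and 3501 of 8693 genes were called. With the replicate block, spring BID stood at -1.07 (limma adjusted p = 0.0245) and summer BAD at -0.56 (limma adjusted p = 0.0495), and no call changed. The labels do not say what a replicate number marks, and the numbers were not taken as pairs because 12 of 24 same-numbered pairs, not all, had a correlation over 0.1. In 8 of the 24 a library correlated best with its own number, 4 of them among the 6 pairs of summer and spring MII, which is a hint from the data and not from the design. BAD, BAK1 and BCL2L1 had means under 1 FPKM and gave no value where that was the filter, and with no filter BCL2 and BOK were not called.

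BCL2L1 passed the adjusted threshold in spring without the 4 libraries that stand apart (-0.12), and in summer with a pseudocount of 0.1 (-0.70), with none (-1.18), with median-of-ratios scaling (-0.14), without the 3 of lowest mapping rate or the 4 (-0.10) and on RPM (-1.47). Leaving out single libraries gave -0.19 to -0.10 in summer, and it passed without summer GV replicate 2 (-0.10). The cause was not tested. BAK1 in spring was -2.34 without a pseudocount, -0.11 in one fit of all groups, -0.14 without the 4 libraries and -0.13 to -0.065 with single libraries left out. Its spring MII libraries all hold the added 0.01, which sets -2.34, and its filter was passed through GV alone. The direction was thus fixed in advance, and none of these values is read as a test, a call or a bound.

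Differences near 0 changed sign without passing a test. BAX from GV to MII in summer was 0.19 after quantile normalization and 0.044 after median-of-ratios scaling, and -0.21 to 0.12 with single libraries left out. Summer minus spring in GV, BAX was -0.017 after quantile normalization, -0.071 after median-of-ratios scaling, -0.062 without the 3 libraries, -0.22 without the 4 and -0.048 on RPM. MCL1 was -0.090 without the 3, and BID -0.047 without the 3 and -0.19 without the 4. Single libraries left out gave -0.19 to 0.13 for BAX, -0.029 to 0.30 for BID and -0.030 to 0.10 for BCL2L1. In MII, BCL2L1 was 0.032 without a pseudocount and 0.032 without the 3 or 4, and 0.071 on RPM. MCL1 was 0.044 and 0.087 under those scalings and 0.26 without the 3 or 4, and BID 0.022 and 0.018 under the scalings. Single libraries left out gave -0.064 to 0.032 for BCL2L1, -0.23 to 0.26 for MCL1, -0.11 to 0.038 for BAD and -0.043 to 0.033 for BID. In the season difference of the change, BCL2L1 was 0.021 without the 4, MCL1 0.0033 after median-of-ratios scaling, 0.34 without the 3 and 0.035 without the 4, BAD -0.065 without a pseudocount and -0.049 on RPM, and BID 0.039 without the 3 and 0.18 without the 4. Single libraries left out gave -0.53 to 0.0096 for MCL1 and -0.31 to 0.027 for BID.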
